A study of Mus musculus with 20 samples.

Results

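The 122 autosomal protein-coding genes whose symbols start with Mrpl, Mrps, Ndufa, Ndufb, Ndufc, Ndufs, or Ndufv were examined among 20807 autosomal protein-coding genes of the mouse. The rule reads the symbol and no measured value. They encode 49 proteins of the large and 29 of the small subunit of the mitochondrial ribosome, 7 core subunits of respiratory complex I, 29 genes grouped here as accessory subunits, and 8 assembly factors (the Ndufaf genes). Symbols do not always follow function: Ndufa4 and Mrps36 are also placed in other mitochondrial complexes, and Ndufa4l2 is a paralog of Ndufa4 rather than a standard complex I subunit.

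Mitochondria hold their own ribosomes, which translate the proteins encoded by mitochondrial DNA, and nearly all of these are subunits of the respiratory chain. Complex I takes electrons from NADH and passes them to ubiquinone while pumping protons across the inner membrane. Its core subunits carry out the electron transfer, the accessory subunits surround and stabilize the core, and the assembly factors help to build the complex without staying in it. The ribosomal proteins and most complex I subunits are encoded in the nucleus, and since nearly all cell types need mitochondria, their promoters are widely used. H3K4me3 marks promoters, H3K27ac marks active promoters and enhancers, and H3K4me1 marks enhancers and the flanks of promoters. p300, the product of Ep300, is an acetyltransferase that modifies H3K27, and TET2 oxidizes 5-methylcytosine in DNA.

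The study compared Lin- bone marrow cells, the cells left after removal of those with mature blood lineage markers, from 4 genotypes. WT mice carried Ep300 fl/fl without Cre. Ep300Δ/Δ mice carried Mx1-Cre and Ep300 fl/fl, Tet2-/- mice carried Ep300 fl/fl and Tet2-/- without Cre, and Ep300Δ/ΔTet2-/- mice carried all 3 alterations. Mice of all groups, of both sexes and a C57BL/6 background, were given 3 doses of poly(I:C) at 10 μg/g, starting at 6 to 8 weeks of age. Mx1-Cre is switched on by interferon and acts in blood cells and some other tissues. The methods place experiments 2 weeks after the injections unless another time is given, and name no other time for the ChIP-Seq. The number of mice behind each library is not given in the sources used here. A small amount of Drosophila chromatin was added to every precipitation, and the peak lists were used here as deposited. H3K27ac, H3K4me1, and H3K4me3 were each measured in 1 library per genotype, which gave 12 peak lists, and the 8 libraries for H3 and H3K27me3 have no list used here. With 1 library per group, no difference between genotypes has a replicate check, and no test or P value was computed.

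A gene was counted as carrying a mark when a peak overlapped its body, extended by 2 kb on each side, by at least 1 bp. Its peak width was that of the widest such peak, in bp. A gene whose mark was present in the first list of a comparison and absent from the second is called lost, and the reverse gained. Shares are given with exact Clopper-Pearson 95% intervals, and median width ratios with exact order-statistic intervals. The former cover counting error and the latter the spread over genes, and neither covers the variation between mice. Peak lists do not give the depth of a library, and a peak just under the threshold counts as absent, so widths and counts describe calls and not amounts of a mark. In bulk cells, a mark in fewer cells and a weaker mark in each cell cannot be told apart. The H3K27ac list of Ep300Δ/Δ cells stood apart from the others: its 22727 peaks had a median width of 402 bp against 490 to 535 bp in the other H3K27ac lists, and 7.17% of them had a q value above 0.05, against 0.78% to 0.9%. Of 7 genes of blood progenitors (Kit, Gata2, Myb, Runx1, Spi1, Cebpa, and Mpo), 5 carried H3K27ac in all 4 lists, whereas Gata2 had none in Ep300Δ/ΔTet2-/- cells and Cebpa none in Tet2-/- and Ep300Δ/ΔTet2-/- cells. Whether a different makeup of the Lin- cells took part in the results was not tested. Both Ep300 and Tet2 carried H3K27ac and H3K4me3 in every list, so the peaks give no check on the deletions.

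These genes are short, and their promoters are often shared with a neighbor. A protein-coding gene on the opposite strand started within 1 kb of the start in 30 of 122 genes (24.6%), against 6.97% of all coding genes, and in 63 genes (51.6% against 22.4%) the start of another coding gene lay in the window. Pairs of genes also shared a promoter region within the set itself, namely Ndufs6 with Mrpl36 (starts 29 bp apart), Mrpl46 with Mrps11 (412 bp), and Mrpl47 with Ndufb5 (615 bp), so that their peaks are not independent. The genes had a median length of 7.98 kb, against 17.6 kb for all coding genes. RefSeq promoter sequences on GRCm38.p6, the assembly also called mm10, running from 250 bases before to 50 after the start, were held for 107 of the 122 genes. These had a median of 21 CpG dinucleotides, against 15 over 15686 coding genes and 22 over the 7151 of them with H3K27ac in all 4 lists.

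Letters of 8 motifs were searched on both strands of these windows. AAGATGGC, the core of the YY1 site, was held by 20 of 107 promoters (18.7%; interval, 11.8% to 27.4%), against 3.25% of all promoters and 5.44% of those with H3K27ac in all 4 lists. In 16 of these 20, it lay after the start on the strand of the gene, which was the case in 186 of 389 promoters with H3K27ac and these letters. GCATGCGC, bound by NRF1, a regulator of nuclear genes for mitochondrial proteins, was held by 13 (12.1%; 6.63% to 19.9%), against 3.79% of all and 6.4% of H3K27ac promoters. CCGGAAG, bound by ETS factors such as GABPA, was held by 30 (28.0%; 19.8% to 37.5%), against 12.6% and 21.8%. It was held by 24 of 69 ribosomal promoters (34.8%) and 6 of 38 complex I promoters (15.8%), and these intervals, 23.7% to 47.2% and 6.02% to 31.3%, overlapped. Of the 107 promoters, 54 held at least 1 of these 3 motifs, 9 held at least 2, and none held all 3. GGGCGG, bound by SP and KLF factors, was held by 50.5% of the promoters of these genes (40.6% to 60.3%), close to the 48.8% of all promoters but below the 65.4% of H3K27ac promoters. CCAAT was held by 37.4%, against 38.4% of all and 39.4% of H3K27ac promoters. The E-box CACGTG was held by 6.54%, against 8.1% and 10.6%, and TGACGTCA, the CRE, by 4.67%, against 2.47% and 3.73%. TATAAA, the TATA box, was held by 7.48% (3.28% to 14.2%), below the 12.9% of all and above the 6.15% of H3K27ac promoters, both of which lie in the interval. A match describes letters and is not a bound site.

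The promoters shown are 4 of genes that lacked H3K27ac in at least 1 genotype and 2 of the genes with the widest H3K27ac peaks in WT cells. They are written 5′ to 3′ on the strand of the gene, with YY1, NRF1, and ETS letters on either strand in capitals. Mrpl42 lies at chr10:95501900-95502199, minus strand, and Mrps24 at chr11:5707652-5707951, minus strand. Ndufab1 lies at chr7:122101799-122102098, minus strand, Mrps2 at chr2:28467816-28468115, plus strand, Mrps18b at chr17:35916391-35916690, minus strand, and Ndufaf3 at chr9:108567387-108567686, minus strand. The first 2 hold YY1 letters after the start and Mrps18b holds 2 NRF1 matches and 1 ETS match, whereas Ndufab1, Mrps2, and Ndufaf3 hold none of the 3.
Mrpl42: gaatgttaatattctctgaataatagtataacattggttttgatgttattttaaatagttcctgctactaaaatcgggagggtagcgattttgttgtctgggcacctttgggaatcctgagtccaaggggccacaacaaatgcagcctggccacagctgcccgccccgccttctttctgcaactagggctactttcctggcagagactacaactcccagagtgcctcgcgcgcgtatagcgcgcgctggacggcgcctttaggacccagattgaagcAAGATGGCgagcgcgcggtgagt
Mrps24: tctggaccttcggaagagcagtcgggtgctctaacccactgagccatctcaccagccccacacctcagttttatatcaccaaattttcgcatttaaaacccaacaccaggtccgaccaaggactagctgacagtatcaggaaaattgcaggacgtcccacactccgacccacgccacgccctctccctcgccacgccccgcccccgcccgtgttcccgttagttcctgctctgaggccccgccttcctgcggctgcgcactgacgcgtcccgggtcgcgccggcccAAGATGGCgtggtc
Ndufab1: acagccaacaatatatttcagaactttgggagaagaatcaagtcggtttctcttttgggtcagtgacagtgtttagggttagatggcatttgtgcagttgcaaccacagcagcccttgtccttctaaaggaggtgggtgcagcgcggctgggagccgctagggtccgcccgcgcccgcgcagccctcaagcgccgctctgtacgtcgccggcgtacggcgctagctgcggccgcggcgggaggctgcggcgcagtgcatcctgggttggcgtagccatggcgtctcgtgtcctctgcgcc
Mrps2: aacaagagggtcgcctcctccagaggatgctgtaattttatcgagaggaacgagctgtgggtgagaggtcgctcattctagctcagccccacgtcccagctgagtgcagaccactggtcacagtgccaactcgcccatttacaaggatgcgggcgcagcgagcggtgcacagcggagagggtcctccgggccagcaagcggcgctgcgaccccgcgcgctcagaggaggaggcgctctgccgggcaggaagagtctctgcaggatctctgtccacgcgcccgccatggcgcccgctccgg
Mrps18b: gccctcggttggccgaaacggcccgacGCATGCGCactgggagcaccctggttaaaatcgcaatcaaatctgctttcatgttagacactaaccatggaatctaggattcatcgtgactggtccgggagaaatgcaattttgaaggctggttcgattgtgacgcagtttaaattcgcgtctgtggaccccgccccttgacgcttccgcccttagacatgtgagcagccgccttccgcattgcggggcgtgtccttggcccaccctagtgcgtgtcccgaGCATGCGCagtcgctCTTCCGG
Ndufaf3: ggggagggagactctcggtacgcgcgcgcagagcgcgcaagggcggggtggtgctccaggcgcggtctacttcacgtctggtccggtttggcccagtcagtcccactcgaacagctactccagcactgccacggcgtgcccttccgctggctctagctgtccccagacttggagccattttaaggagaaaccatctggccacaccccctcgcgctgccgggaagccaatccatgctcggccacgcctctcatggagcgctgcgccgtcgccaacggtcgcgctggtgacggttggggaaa

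All 122 genes carried H3K4me3 in all 4 genotypes, and nearly all carried H3K27ac. The share with H3K27ac was 98.4% in WT (120 genes; interval, 94.2% to 99.8%), 97.5% in Ep300Δ/Δ (119; 93.0% to 99.5%), 99.2% in Tet2-/- (121; 95.5% to 100%), and 95.1% in Ep300Δ/ΔTet2-/- cells (116; 89.6% to 98.2%), and these intervals overlapped. Over all coding genes the shares were 52.3%, 48.8%, 51.2%, and 47.5%. H3K4me3 was present at 65.6% to 66.6% of all coding genes. H3K4me1 was present at 109 of the 122 genes (89.3%; 82.5% to 94.2%) in each of WT, Ep300Δ/Δ, and Tet2-/- cells and at 106 (86.9%; 79.6% to 92.3%) in Ep300Δ/ΔTet2-/- cells, against 68.6% to 69.7% of all coding genes. Across lists, 115 genes (94.3%; 88.5% to 97.7%) had H3K27ac in all 4 lists, against 43.7% of all coding genes, and 89 (73.0%; 64.2% to 80.6%) had all 3 marks in all 4, against 38.5%. For H3K4me1 this was 95 genes (77.9%; 69.5% to 84.9%), against 61.8%. Mrpl3, Mrpl11, Mrpl42, Mrpl45, and Mrps30 had no H3K4me1 peak in any list (4.1%, against 25.1% of all coding genes).

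**Figure D1:**
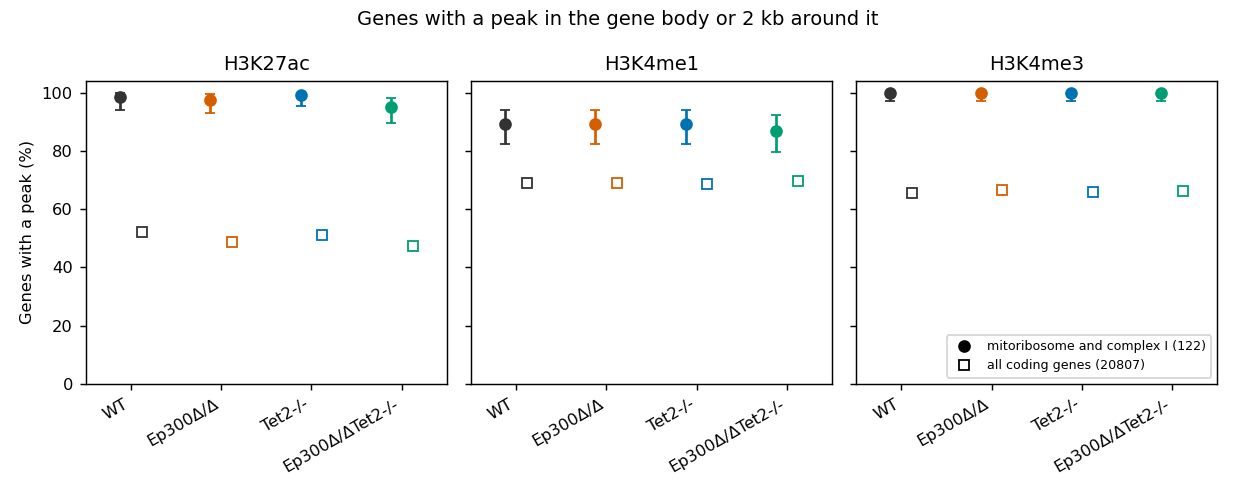
Percent of genes with a peak of each mark in the gene body or 2 kb around it, for the 122 mitochondrial ribosome and complex I genes (filled circles) and all 20807 autosomal protein-coding genes (open squares) in 4 genotypes, with exact 95% intervals. The circles lie between 95.1% and 99.2% for H3K27ac and at 100% for H3K4me3, above the squares in every list.

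The marks differed in their place around the start. H3K4me3 covered the start itself in 94.3% to 95.1% of the genes. H3K27ac covered the largest share of genes downstream of the start, at 84.4% to 90.2% between 200 and 350 bp into the gene, and a smaller share just before it. H3K4me1 covered the start in 2.46% to 4.1% of the genes, against 13.3% to 16.4% of the 11675 coding genes with H3K4me3 at the start in all 4 lists. It reached its highest share, 37.7% to 43.4%, at 900 to 1050 bp into the gene. The median summits of H3K27ac (171 to 188 bp downstream of the start) and H3K4me3 (163 to 200 bp) overlapped, and that of H3K4me1 lay 299 to 654 bp downstream. Within the widest H3K4me3 peak, the median share of bases also under H3K27ac was 53.7% in WT, 44.5% in Ep300Δ/Δ, 50.1% in Tet2-/-, and 50.3% in Ep300Δ/ΔTet2-/- cells. The Ep300Δ/Δ list was the lowest here and, over the coding genes with H3K4me3, also the lowest at 32.1%, against 42.8%, 39.7%, and 33.7%. For Ndufa4l2, Mrps24, and Mrpl35, no H3K4me3 peak lay within 1 kb of the most 5′ annotated start. For Mrps24 this start lies 7979 bp from the RefSeq start, which was under its H3K4me3 peak in all 4 lists.

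**Figure D2:**
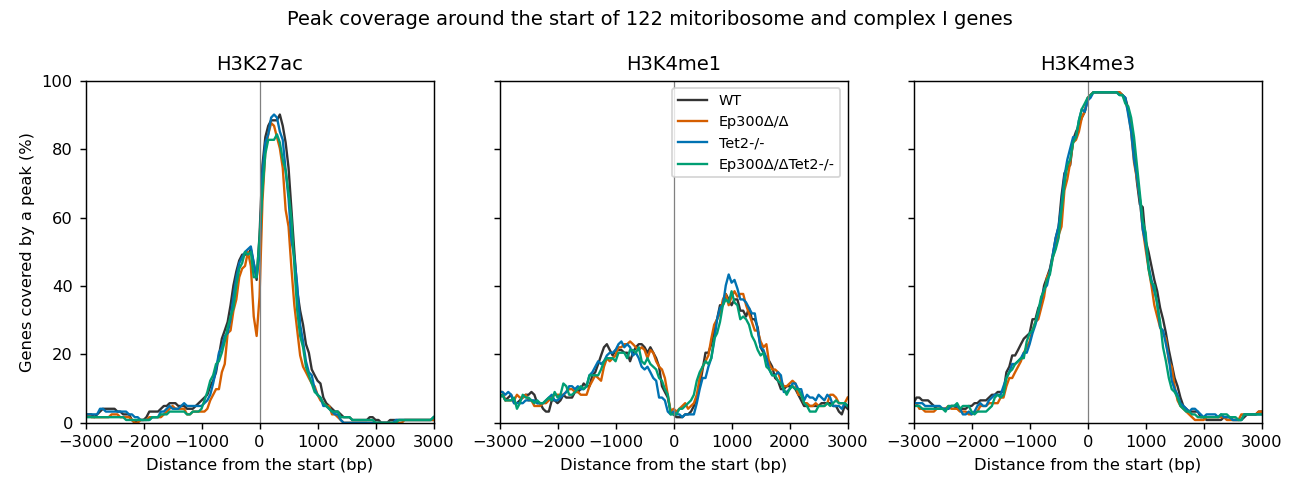
Percent of the 122 genes covered by a peak of H3K27ac, H3K4me1, or H3K4me3 at each position from 3000 bp before to 3000 bp after the start, in steps of 50 bp, with 1 line per genotype. H3K4me3 spans the start, H3K27ac peaks just downstream with a dip before the start that reaches 25.4% in Ep300Δ/Δ and 41.8% in WT cells, and H3K4me1 lies on both flanks.

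Acetylation away from promoters was rare at these short genes. H3K27ac peaks over 3 kb from every annotated transcript start lay in the windows of 5 genes in WT cells (Mrpl1, Mrpl15, Mrpl33, Mrps27, and Mrps35), with 9 peaks in all. Such a peak was present at 2 such a peak in Ep300Δ/Δ cells (Mrpl33 and Mrps27), 3 in Tet2-/- cells (Mrpl1, Mrpl33, and Mrps27), and 2 in Ep300Δ/ΔTet2-/- cells (Mrpl33 and Mrps27). The share of genes with a distal peak was 4.1%, 1.64%, 2.46%, and 1.64%, against 12.1%, 7.59%, 10.6%, and 7.01% of all coding genes. Mrpl33, which encodes a protein of the large subunit, had the most, with 3 distal peaks in WT, 1 in Ep300Δ/Δ, 3 in Tet2-/-, and 1 in Ep300Δ/ΔTet2-/- cells.

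From WT to Ep300Δ/Δ cells, 118 of the 120 mitochondrial ribosome and complex I genes with H3K27ac still had a peak, and most of these peaks were narrower. 2 of 120 genes were lost (1.67%; interval, 0.202% to 5.89%), against 9.22% of all coding genes, and 1 of 119 was gained (0.84%), against 2.81%. Widths had a median of 798 bp in WT and 595 bp in Ep300Δ/Δ cells, and the median ratio over the 118 genes with a peak in both was 0.818 (0.77 to 0.872), against 0.788 over all coding genes. The peak was narrower in 100 of the 118 genes (84.7%, against 84.8%). It was at least 1.5-fold narrower in 32 (27.1%), against 35.9% of all coding genes, and at least 1.5-fold wider in 4 (3.39%), against 1.77%. The ratio of these genes thus lay close to that of all coding genes. Median ratios were 0.821 for the large subunit, 0.811 for the small subunit, 0.83 for the accessory subunits, 0.795 for the assembly factors, and 0.928 for the core subunits (interval, 0.256 to 0.988). Both lost genes encode ribosomal proteins. Mrpl42 had a 438-bp peak in WT, none in Ep300Δ/Δ, a 542-bp peak in Tet2-/-, and an 833-bp peak in Ep300Δ/ΔTet2-/- cells. Its fold enrichment in WT cells, the authors' value over H3, was 8.14, which exceeded 60.9% of the peaks of that list. Mrps24 had peaks of 435 bp in WT and 414 bp in Tet2-/- cells and none in Ep300Δ/Δ and Ep300Δ/ΔTet2-/- cells. The gained gene, Mrps6, had peaks of 339 bp in Ep300Δ/Δ and 378 bp in Tet2-/- cells and none in the others, and the former had a q value of 0.302, above the stated threshold. With only peaks of −log10 q of at least 5 in both lists, 13 of 120 genes were lost (10.8%) against 15.8% of all coding genes, and the Ep300Δ/Δ list then held 14183 of its peaks. With lists of equal size, 6 of 120 were lost (5.0%) against 6.94%, and with the gene body alone 5 of 119 (4.2%) against 10.8%.

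**Figure D3:**
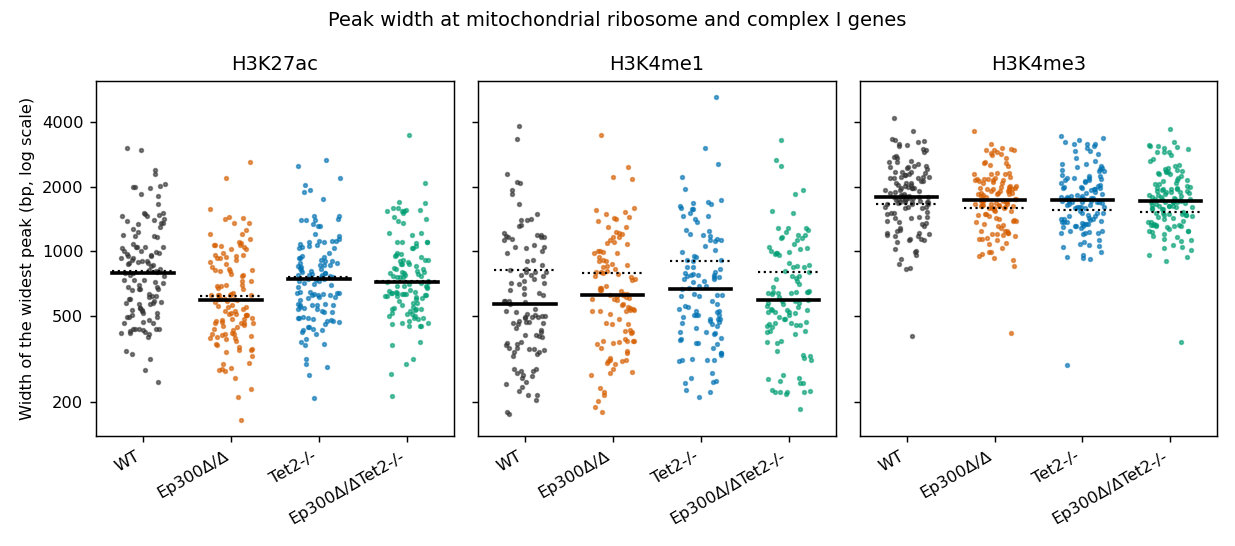
Width of the widest peak (bp, log scale) at each of the 122 genes that had a peak of H3K27ac, H3K4me1, or H3K4me3 in each genotype. Points are genes, thick lines the median over these genes, and dotted lines the median over all coding genes with a peak, with H3K27ac medians of 798, 595, 743, and 720 bp in the order drawn.

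In Ep300Δ/Δ cells H3K27ac peaks were also more often interrupted at the start. A peak covered the start in 67 genes in WT, 45 in Ep300Δ/Δ, 60 in Tet2-/-, and 66 in Ep300Δ/ΔTet2-/- cells. Separate peaks on both sides of the start, within 1 kb, were present in 17, 28, 20, and 15 genes, and a peak only downstream in 30, 38, 33, and 29. Among all coding genes with a peak there, the start was covered in 49.9%, 35.3%, 50.9%, and 48.2%, against 57.3%, 38.5%, 50.8%, and 57.9% of the mitochondrial ribosome and complex I genes with a peak there, so the Ep300Δ/Δ list was the lowest in both. Peaks on both sides were present in 21.9%, 28.1%, 21.1%, and 19.2% of the former and 14.5%, 23.9%, 16.9%, and 13.2% of the latter. A peak only downstream was present in 22.2%, 30%, 21.1%, and 23.7% and in 25.6%, 32.5%, 28.0%, and 25.4%. Of the 67 genes covered in WT cells, 42 stayed covered in Ep300Δ/Δ cells, with a median width ratio of 0.884, and 12 had a peak on each side instead, with a median ratio of 0.515. Both ratios use the widest peak in the whole window, which need not lie at the start, as at Ndufs8. Such changes of single genes were not counted over all coding genes. The 12 genes with a peak on each side instead were Mrpl2, Mrpl18, Mrpl30, Mrpl37, Mrpl50, Mrpl55, Mrps7, Ndufa2, Ndufa7, Ndufaf3, Ndufaf5, and Ndufs8. A further 10 had only a downstream peak. Ndufaf3, an assembly factor, is an example: its 1 peak of 2946 bp in WT cells stood against peaks of 1140, 849, and 367 bp in Ep300Δ/Δ, 1 of 2497 bp in Tet2-/-, and 1 of 2090 bp in Ep300Δ/ΔTet2-/- cells. Genes with a divergent partner had peaks on both sides in 5 of 30 cases in WT and 13 of 30 in Ep300Δ/Δ cells, against 12 and 15 of the 92 others. In Tet2-/- and Ep300Δ/ΔTet2-/- cells the counts were 9 and 7 of 30, against 11 and 8 of 92. The same was not counted over all coding genes with a divergent partner. When the bases of all peaks in a window were summed, the median ratio from WT to Ep300Δ/Δ was 0.848, against 0.755 over all coding genes.

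The genes with the lowest width ratios were Mrps34 (1801 bp in WT, 348 in Ep300Δ/Δ, 570 in Tet2-/-, and 690 in Ep300Δ/ΔTet2-/- cells), Mrps15 (685, 165, 792, and 268 bp), and Ndufs8 (2010, 515, 565, and 574 bp). Mrps34 and Mrps15 encode proteins of the small subunit and Ndufs8 a core subunit with iron-sulfur clusters. The 2010-bp peak of Ndufs8 in WT cells began 5721 bp from its start, beyond the end of the gene, and the peak at the start was 430 bp in WT and 283 bp in Ep300Δ/Δ cells. Mrps15 was narrower where Ep300 was deleted, on both backgrounds, and Mrps34 was widest in WT cells. The highest ratios belonged to Ndufa12 (280 bp in WT, 598 in Ep300Δ/Δ, 861 in Tet2-/-, and 533 in Ep300Δ/ΔTet2-/- cells), Mrpl39 (248, 505, 542, and 625 bp), and Ndufb3 (710, 1413, 1403, and 711 bp). At Ndufb3, whose start lies 61 bp from that of Fam126b, the wide peak of Ep300Δ/Δ and Tet2-/- cells corresponded to a pair of peaks, of 710 and 708 bp in WT and of 711 and 546 bp in Ep300Δ/ΔTet2-/- cells.

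From Tet2-/- to Ep300Δ/ΔTet2-/- cells, 5 genes were lost and widths stayed close to even. The 5 of 121 genes (4.13%; 1.36% to 9.38%) compared with 10.7% of all coding genes, and none of 116 was gained, against 3.78%. The Ep300Δ/ΔTet2-/- list was the smallest for H3K27ac, with 18327 peaks against 24539 in Tet2-/- cells. With lists of equal size, 117 of the 122 genes had H3K27ac in Tet2-/- and 116 in Ep300Δ/ΔTet2-/- cells. Over all coding genes these shares were 47.8% and 47.5%. The median width ratio was 1.01 (0.943 to 1.05) over 116 genes, against 0.96 over all coding genes, with 57 narrower (49.1%, against 56.8%) and 59 wider. With summed bases the ratio was 0.976 (0.939 to 1.05), against 0.903, on the other side of 1. At least 1.5-fold narrower were 13 genes (11.2%), against 17.4%, and at least 1.5-fold wider 11 (9.48%), against 8.76%. The lost genes were Mrps2, Mrps6, and Mrps24 of the small subunit, Ndufab1, the mitochondrial acyl carrier protein that also sits in complex I, and the assembly factor Ndufaf6. Ndufab1 had its widest peak at 505 bp in WT, 368 bp in Ep300Δ/Δ, and 266 bp in Tet2-/- cells. Mrps2 had peaks of 425 bp in WT, 284 bp in Ep300Δ/Δ, and 468 bp in Tet2-/- cells. Ndufaf6 had peaks of 316 bp in WT, 280 bp in Ep300Δ/Δ, and 316 bp in Tet2-/- cells, and the Ep300Δ/Δ peak had a q value of 0.0525. All 5 were weak in Tet2-/- cells, with fold enrichments between 3.1 and 6.76, in the lowest of 4 equal classes of coding genes ranked by fold enrichment there. That class held 24 of the 121 genes, 5 of which were lost, against 35.5% of all coding genes in it. In the classes above, none of these genes was lost, against 6.46%, 0.902%, and 0.0751% of all coding genes from the weakest to the strongest. From WT to Ep300Δ/Δ cells, the lowest class held 15 of the 120 genes and only Mrps24 of them was lost, against 32.8% of all coding genes in it, whereas Mrpl42 stood in the class above. H3K4me3 was present at each of these 5 genes in all 4 lists, and in Ep300Δ/ΔTet2-/- cells its widest peak was 1323 bp at Ndufab1, 1456 bp at Mrps2, 1726 bp at Mrps24, 1311 bp at Ndufaf6, and 2158 bp at Mrps6.

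**Figure D4:**
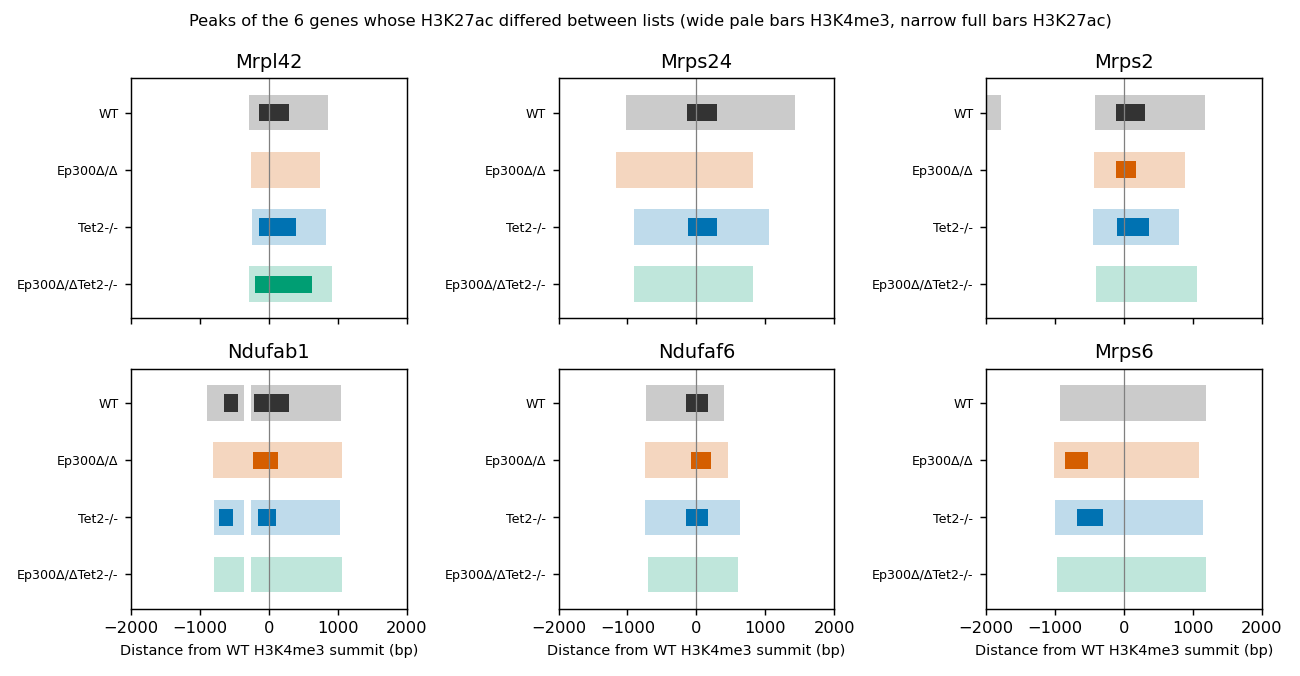
H3K27ac peaks (narrow full bars) and H3K4me3 peaks (wide pale bars) of the 6 genes whose H3K27ac was present in some lists only, by distance in bp from the WT H3K4me3 summit in the direction of transcription, with 1 line per genotype. H3K4me3 bars are present in every line, whereas H3K27ac bars are missing in WT for Mrps6, in Ep300Δ/Δ for Mrpl42 and Mrps24, and in Ep300Δ/ΔTet2-/- for all but Mrpl42.

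The lowest width ratios on the Tet2-null background belonged to Mrps15, Ndufa13, and Mrpl55. Ndufa13, an accessory subunit, had peaks of 2284 bp in WT, 825 bp in Ep300Δ/Δ, 1936 bp in Tet2-/-, and 809 bp in Ep300Δ/ΔTet2-/- cells, and so was narrower in both lists with deleted Ep300. At this gene the wide peak of WT and Tet2-/- cells lay where the others had 3 peaks. The highest ratios belonged to Mrpl22 (291 bp in Tet2-/- and 759 bp in Ep300Δ/ΔTet2-/- cells), Mrpl32 (759 and 1592 bp), and Mrpl41 (774 and 1598 bp), all of the large subunit. By group, the median ratio was 1.01 for the large subunit (0.933 to 1.09), 1.04 for the small subunit (0.901 to 1.21), and 0.909 for the accessory subunits (0.619 to 1.05), and these intervals overlapped. It was 0.954 for the core subunits and 1.05 for the assembly factors.

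From WT to Tet2-/- cells, all mitochondrial ribosome and complex I genes with H3K27ac kept it. None of 120 genes was lost (interval, 0.0% to 3.03%), against 6.43% of all coding genes, and only Mrps6 was gained (0.826%), against 4.39%. The median width ratio was 0.949 (0.883 to 1.01), against 0.951, with 21 genes at least 1.5-fold narrower (17.5%, against 17.6%) and 10 wider (8.33%, against 8.7%). The lowest ratios belonged to Ndufs8, Mrps34, and Mrpl41 (1994 bp in WT and 774 bp in Tet2-/- cells), and the highest to Ndufa12, Ndufa5 (416 and 1063 bp), and Ndufs5 (465 and 1035 bp). From Ep300Δ/Δ to Ep300Δ/ΔTet2-/- cells, 4 of 119 genes were lost (3.36%; 0.923% to 8.38%), against 8.09% of all coding genes, namely Mrps2, Mrps6, Ndufab1, and Ndufaf6. Mrpl42 was gained (0.862%), against 5.42%. The widths pointed the other way, with a median ratio of 1.15 (1.09 to 1.22), against 1.12, and 90 of 115 genes wider and 25 narrower (21.7%, against 31.2% of all coding genes). Wider by at least 1.5-fold were 23 genes (20%), against 23.2%, and narrower 3 (2.61%), against 7.01%. The highest ratios belonged to the assembly factor Ndufaf7 (390 bp in Ep300Δ/Δ and 1219 bp in Ep300Δ/ΔTet2-/- cells), Mrpl30 (505 and 1536 bp), and Mrps28 (278 and 763 bp), and the lowest to Mrpl43 (1358 and 538 bp), Ndufb3, and Ndufb10 (907 and 549 bp). The 4 comparisons share lists, so that the narrow Ep300Δ/Δ list enters 2 of them. Over the 115 genes with H3K27ac in all 4 lists, the Ep300Δ/Δ peak was the narrowest in 65 (56.5%, against 53.0% of such coding genes), and the WT peak the widest in 48 (41.7%, against 45.9%).

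**Figure D5:**
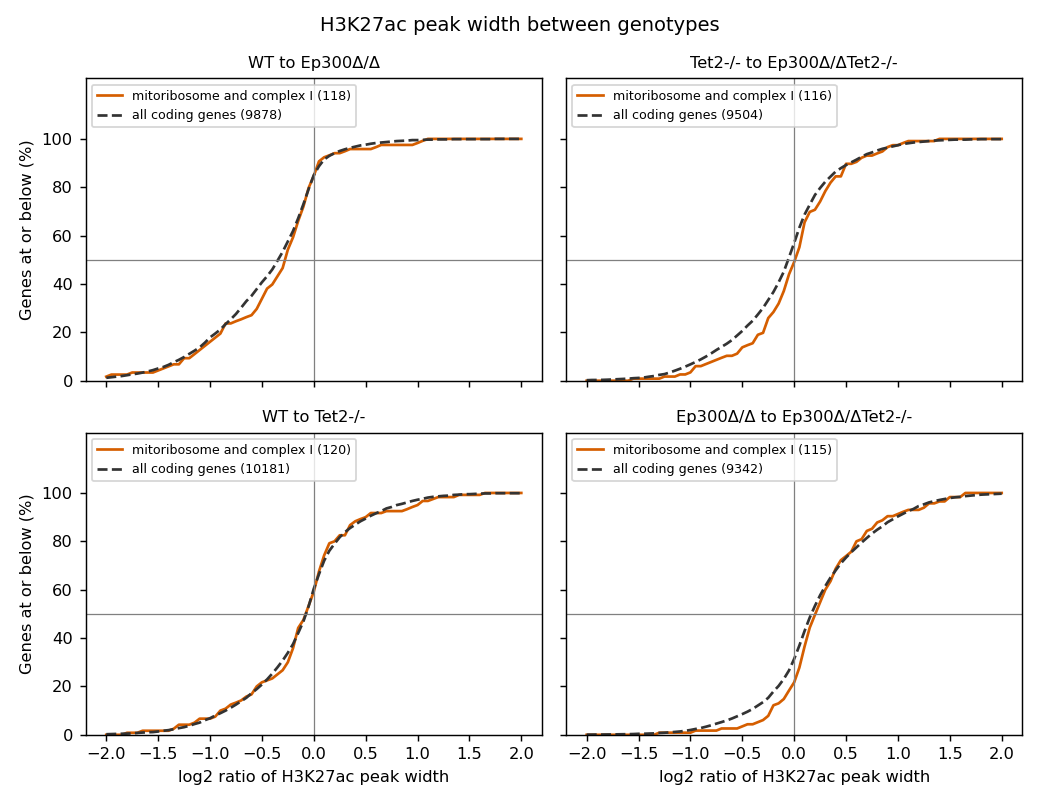
Cumulative percent of genes by log2 ratio of H3K27ac peak width in 4 comparisons of genotypes, for the mitochondrial ribosome and complex I genes (solid) and all coding genes with a peak in both lists (dashed). The solid line reaches 50% at a ratio of 0.818 from WT to Ep300Δ/Δ cells and at 1.01 from Tet2-/- to Ep300Δ/ΔTet2-/- cells, and the dashed line at 0.788 and 0.96. From Ep300Δ/Δ to Ep300Δ/ΔTet2-/- cells, 21.7% on the solid line and 31.4% on the dashed line lie at or below a log2 ratio of 0.

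The core subunits of complex I carried H3K27ac and H3K4me3 in every list. Ndufs1, Ndufs7, Ndufs8, Ndufv1, and Ndufv2 bind the flavin or iron-sulfur clusters, and Ndufs3 lies with them in the peripheral arm of the complex. Ndufs1 had H3K27ac peaks of 2002 bp in WT, 1438 bp in Ep300Δ/Δ, 1753 bp in Tet2-/-, and 1672 bp in Ep300Δ/ΔTet2-/- cells. Ndufs7 stayed between 978 and 1041 bp, Ndufs3 between 929 and 1033 bp, and Ndufv1 between 488 and 543 bp. Ndufv2 had peaks of 883, 872, 906, and 621 bp in the same order. The core subunits named here were narrower in Ep300Δ/Δ than in WT cells, as were 84.8% of all coding genes. The median ratio of the 7 core subunits was 0.928, and its interval, 0.256 to 0.988, held the 0.788 of all coding genes. With summed bases the ratios were 0.792 and 0.755. Ndufa4, which is also assigned to cytochrome c oxidase, had peaks of 894, 729, 905, and 950 bp, and Mrps36, also a component of the 2-oxoglutarate dehydrogenase complex, of 1413, 773, 768, and 826 bp. Ndufa4l2 was the only gene with no H3K27ac in any list. Its H3K4me3 peaks of 405, 418, 297, and 378 bp lay upstream, with summits at positions −1780 to −1757 bp relative to the start, and had fold enrichments of 4.22, 2.88, 3.01, and 3.92, each below the median over the 122 genes in the same list, 58.5, 46.3, 37.1, and 32.8.

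The widest H3K27ac peaks in WT cells belonged to Mrps18b (3034 bp), Ndufaf3 (2946 bp), Ndufb6 (2397 bp), Ndufa13 (2284 bp), and Mrpl48 (2059 bp). Mrps18b had peaks of 3034 bp in WT, 2606 bp in Ep300Δ/Δ, 2667 bp in Tet2-/-, and 3478 bp in Ep300Δ/ΔTet2-/- cells, the last from position −3943 to −466 bp, on the side of Ppp1r10, whose start is 45 bp away, beside a separate peak of 1207 bp over the start. Mrpl48 had peaks of 2059, 961, 1406, and 1093 bp, and Ndufb6 of 2397, 2186, 2184, and 1539 bp. Genes with another coding start in their window had wider H3K27ac peaks than the rest in every list, with medians of 916 against 647 bp in WT and 699 against 508 bp in Ep300Δ/Δ cells. In Tet2-/- cells these medians were 824 against 644 bp and in Ep300Δ/ΔTet2-/- cells 809 against 660 bp. For H3K4me3 they were 2087 against 1509 bp in WT cells.

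H3K4me3 differed little between genotypes. No gene was lost or gained in any comparison (interval for 0 of 122, 0.0% to 2.98%). Of all coding genes, 1.63% were lost and 3.13% gained from WT to Ep300Δ/Δ, and 1.61% and 2.04% from Tet2-/- to Ep300Δ/ΔTet2-/- cells. From WT to Tet2-/- cells 1.51% were lost and 2.23% gained, and from Ep300Δ/Δ to Ep300Δ/ΔTet2-/- cells 2.28% and 1.93%. The median width was 1796.5 bp in WT, 1724 bp in Ep300Δ/Δ, 1725.5 bp in Tet2-/-, and 1712 bp in Ep300Δ/ΔTet2-/- cells. Median ratios in the 4 comparisons were 0.965 (0.942 to 0.982), 0.994 (0.986 to 1.01), 0.99 (0.976 to 1.0), and 1.02 (1.01 to 1.04) in the order used above, against 0.974, 0.989, 0.988, and 1.01 over all coding genes. The widest peak of a gene exceeded its narrowest by a median of 1.14-fold for H3K4me3 (1.23-fold over coding genes with the mark in all 4 lists), 1.5-fold for H3K27ac (1.7-fold), and 1.66-fold for H3K4me1 (1.68-fold). The widest H3K4me3 peaks in WT cells were at Mrpl41 (4188 bp), Mrps34 (3631 bp), Mrpl34 (3330 bp), Ndufs8 (3287 bp), and Ndufaf3 (3260 bp). Mrpl41 was narrower in the other lists, at 2949, 2914, and 2910 bp, whereas Mrps34 stayed between 3349 and 3716 bp although its H3K27ac peak differed from 348 to 1801 bp.

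H3K4me1 was the most variable of the marks at these genes, with 22 of 122 genes (18%) carrying it in some lists only, against 13.1% of all coding genes. Its losses depended on the peaks and window used. From WT to Ep300Δ/Δ cells, 6 of 109 were lost (5.5%; 2.05% to 11.6%), against 5.05% of all coding genes, and 6 were gained (5.5%), against 5.21%. From Tet2-/- to Ep300Δ/ΔTet2-/- cells, 6 of 109 were lost (5.5%), against 4.43%, and 3 of 106 gained (2.83%), against 5.97%. From WT to Tet2-/- cells, 7 were lost and 7 gained (6.42% each), against 5.25% and 4.76%, and from Ep300Δ/Δ to Ep300Δ/ΔTet2-/- cells 8 were lost (7.34%) and 5 gained (4.72%), against 4.49% and 5.38%. With −log10 q of at least 5, the share lost from Tet2-/- to Ep300Δ/ΔTet2-/- cells was 20.6% (13.2% to 29.7%), against 12.9% of all coding genes. Within 1 kb of any transcript start, the share lost from Ep300Δ/Δ to Ep300Δ/ΔTet2-/- cells was 17.3% (10.4% to 26.3%), against 9.08%. The median width ratio was 1.02 (0.983 to 1.09) from WT to Ep300Δ/Δ, against 0.979 over all coding genes, and 0.876 (0.798 to 0.94) from Tet2-/- to Ep300Δ/ΔTet2-/- cells, against 0.919. From WT to Tet2-/- cells it was 1.1 (1.06 to 1.27), against 1.08, and from Ep300Δ/Δ to Ep300Δ/ΔTet2-/- cells 0.915 (0.848 to 1.01), against 1.01. The median width of the widest H3K4me1 peak per gene was below that of all coding genes in every list. It was 567 against 817 bp in WT and 626 against 794 bp in Ep300Δ/Δ cells. In Tet2-/- cells it was 669 against 903 bp, and in Ep300Δ/ΔTet2-/- cells 592 against 799 bp. However, these shorter genes also held fewer H3K4me1 peaks, with a mean of 2.93 against 6.03 per gene with the mark in WT cells. The widest peak is taken from all peaks in a window, so these medians do not show whether single peaks were narrower. The genes with H3K4me1 in some lists only included Mrps18a and Mrpl32, which had it in WT cells alone, and Mrpl27, in Ep300Δ/Δ cells alone.

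Other nuclear genes for mitochondrial gene expression and respiration also carried H3K4me3 in every list and mostly H3K27ac. H3K4me3 was present in all 4 lists at each gene of 7 lists, namely 17 mitochondrial aminoacyl-tRNA synthetases, 11 translation factors, 4 genes of complex II, 9 of complex III, 10 of complex IV, 17 gene models of ATP synthase (of which 2 are named Atp5o), and 13 regulators of mitochondrial biogenesis. H3K27ac was present in all 4 lists at 15 of the synthetases, 10 of the translation factors, 4, 8, and 9 genes of complexes II, III, and IV, all 17 of ATP synthase, and 11 of the regulators. From WT to Ep300Δ/Δ cells, 1 of the 78 genes with H3K27ac was lost (1.28%, against 9.22% of all coding genes), namely Cars2, a synthetase for cysteine, with 349 bp in WT, none in Ep300Δ/Δ, 395 bp in Tet2-/-, and none in Ep300Δ/ΔTet2-/- cells. Mtfmt, which formylates the initiator tRNA, had 195 bp in Ep300Δ/Δ cells alone. From Tet2-/- to Ep300Δ/ΔTet2-/- cells, 4 of 78 were lost (5.13%, against 10.7% of all coding genes): Cars2, the alanine synthetase Aars2 (307 bp in Tet2-/- cells), Cyc1 of complex III (305 bp), and Cox6a1 of complex IV (574 bp). Median H3K27ac width ratios of the lists lay between 0.793 and 0.915 from WT to Ep300Δ/Δ and between 0.708 and 1.09 from Tet2-/- to Ep300Δ/ΔTet2-/- cells, the lowest for the 4 genes of complex II. Among the regulators, none differed in the presence of H3K27ac. Polrmt, the mitochondrial RNA polymerase, and the coactivator Ppargc1a had none in any list. Tfam, which packages mitochondrial DNA, had peaks of 606, 642, 663, and 555 bp in WT, Ep300Δ/Δ, Tet2-/-, and Ep300Δ/ΔTet2-/- cells, and Nrf1 of 760, 668, 694, and 698 bp. Gabpa shares its peaks with Atp5j, and both had 1414, 1441, 1211, and 1184 bp.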

How the data were processed

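Per the submitters' notes and the methods, the authors used cutadapt 1.15 for trimming, BWA 0.7.13 for alignment to mm10, Picard for duplicates, and MACS2 2.1.1.20160309 with H3 as background for narrow peaks, and kept peaks seen in pseudo-replicates. Which H3 library was used is not given in the sources used here. The threshold stated for q is 0.05, yet 0.137% to 7.17% of the peaks in each deposited list exceeded it. Columns used from the deposited lists were the peak's limits, its summit, the fold enrichment (a ratio over H3), and the −log10 q. Fold enrichments were compared only with others of the same list. Fixed thresholds of q were applied to every list, and the share of peaks with q above 0.05 was compared between lists. The deposited score was not used. The labels call the libraries single-end, the methods paired-end.

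Gene models were GENCODE M21. The members and gene lists were chosen with earlier results of these data known. Genes named for H3K27ac were up to 5 lost and 5 gained per comparison, the 3 lowest and 3 highest width ratios, the 5 widest in WT cells (also for H3K4me3), the core subunits (some values are not reported here), Ndufa4, Mrps36, genes with H3K4me3 but no H3K27ac, and regulators that differed. Others were named after their values were seen, where a count was small or a pattern was described. "All coding genes" are the autosomal protein-coding genes, these 122 included. Alternatives changed the window, the overlap, the q threshold, and the list size. Overlap counts were checked against bedtools and tested on simulated data. Python 3.11.15, numpy 2.4.6, pandas 2.3.3, scipy 1.17.1, and matplotlib 3.10.9 were used. Depth is unknown from peak lists.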

Additional observations from a re-analysis of the deposited data

Results flagged for a closer look

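The median H3K27ac width ratio of the mitochondrial ribosome and complex I genes with Ep300 deletion was 0.818 from WT to Ep300Δ/Δ cells and 1.01 from Tet2-/- to Ep300Δ/ΔTet2-/- cells, on opposite sides of 1. The interval of the latter, 0.943 to 1.05, held 1, and with summed bases the ratios were 0.848 and 0.976, both below 1. The median H3K4me1 width ratio was 1.02 and 0.876 in these comparisons, also on opposite sides, and 0.964 and 0.884 with summed bases, both below 1. The difference between the backgrounds was not tested, since each ratio rests on 1 library per genotype, and all coding genes gave 0.788 and 0.96 for H3K27ac and 0.979 and 0.919 for H3K4me1.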

How the results depend on the processing

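With 1 library per genotype and mark, nothing could be left out in turn. No paired analysis was possible because each group holds 1 sample. Of 60 width ratios under alternatives, 58 stayed within the interval first reported, although the H3K27ac ratio crossed 1 with summed bases from Tet2-/- to Ep300Δ/ΔTet2-/- cells, at 0.976, and within 1 kb of the start, at 0.983. H3K4me1 from WT to Ep300Δ/Δ cells gave 0.999 with q of at most 0.05. H3K4me1 gave 0.964, below 1 where the widest peak gave 1.02, from WT to Ep300Δ/Δ cells with summed bases and 1.04 from WT to Tet2-/- cells within 1 kb of the start. The share with H3K27ac left its interval once, at 87.7% in Ep300Δ/Δ cells with −log10 q of at least 5, where the share lost from WT to Ep300Δ/Δ cells became 10.8%. H3K4me3 within 1 kb of the most 5′ start was present at 96.7% in each list. H3K4me1 was the most sensitive. In WT, Ep300Δ/Δ, Tet2-/-, and Ep300Δ/ΔTet2-/- cells its share was 77.0%, 77.0%, 80.3%, and 76.2% in the gene body alone, 68.9%, 70.5%, 68.0%, and 68.0% within 1 kb of the start, and, in an alternative chosen after seeing the data, 77.0%, 80.3%, 75.4%, and 73.0% within 1 kb of any transcript start. With −log10 q of at least 5 it was 70.5%, 67.2%, and 70.5% in WT, Ep300Δ/Δ, and Ep300Δ/ΔTet2-/- cells, and with lists of equal size 80.3% in WT cells. H3K4me1 losses from WT to Ep300Δ/Δ cells were 12.8% (gene body), 11.9% (1 kb), 16.3% (−log10 q), and 2.04% (equal size), against 6.75%, 11.1%, 17.4%, and 3.89% of all coding genes. From Tet2-/- to Ep300Δ/ΔTet2-/- cells they were 13.3% (1 kb), 20.6% (−log10 q), and 12% (any start), against 10.8%, 12.9%, and 8.32%. From WT to Tet2-/- cells they were 16.7% (1 kb), against 14.7%, and from Ep300Δ/Δ to Ep300Δ/ΔTet2-/- cells 15.1% (1 kb) and 17.3% (any start), against 12.1% and 9.08%. Smaller windows hold fewer of the flanking peaks, and other causes were not tested. Peaks with q of at most 0.05, also chosen after seeing the data, left every value within its interval.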
